A study of Mus musculus with 71 samples.

Results

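Directly induced oocyte-like cells (DIOLs) are mouse embryonic stem cells that are turned into oocyte-like cells in culture without first forming primordial germ cell-like cells. Here DIOLs at day 15 of culture were set against DIOLs at day 10, with 2 libraries at each day, which are 4 of the 71 samples of the series. The 4 libraries were taken by their labels (DIOLs, day and replicate number), and none of the DIOLs.S libraries, a separately labelled set, belongs to them. The DIOLs of day 15 and day 10 share the strain C57BL/6 X 129 and the genotype MGA8, and they differ in the day of collection. Both were made by aggregating stem cells in wells with medium that held serum, stem cell factor, Shield1 and Y-27632. Shield1 is a small molecule that keeps proteins fused to a destabilising domain from being degraded. The aggregates were moved to collagen-coated membranes on day 2 and kept there. No gonadal somatic cells are named for these aggregates, in contrast to the ovary-like cultures elsewhere in the series. The labels name neither the introduced genes nor a sort of these cells, nor a clone, nor what the S of DIOLs.S stands for, so the values describe 1 genotype. In such samples, fewer cells of a type and less RNA per cell cannot be told apart. The labels do not say that the replicates were separate cultures, so every p-value measures the spread between libraries, which may be technical.

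A growing oocyte stores messenger RNA and protein for the embryo, builds the zona pellucida around itself and secretes growth factors of the TGF-beta family that act on the follicle. It enters this phase after meiotic prophase, in which chromosomes pair along the synaptonemal complex and recombine, and then stays arrested with its large nucleus, the germinal vesicle (GV), intact. Genes of prophase and of early germ cells are known to decline as growth begins, while the genes of the zona, of the secreted factors and of the maternal stores reach high levels.

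Expression was measured as TPM, a share of transcripts scaled for their length, from polyA-selected RNA, and changes are given on the log2(TPM + 1) scale, which understates those of genes at low levels. The table used here covers mainly the genes of chromosomes 1 to 5 and of 10 to 19, and the others were not analysed here, which leaves out defining genes such as Foxl2. Its genes took a share of 0.624 and 0.618 of all TPM at day 15, against 0.596 and 0.591 at day 10. Genes at 1 TPM or more numbered 8728 and 8748 at day 15, against 9070 and 8974 at day 10. The depth of the libraries is unknown. Across tested genes the replicates correlated with a Pearson r of 0.996 at day 15 and 0.993 at day 10. Defining oocyte genes were high at both days: Zp3, which encodes a zona pellucida protein, had 16984 and 16372 TPM at day 15, against 10502 and 10485 TPM at day 10, and Padi6, which encodes a maternal protein of the egg cytoplasm, had 34495 and 33020.2 TPM at day 15, against 23295 and 23260.0 TPM at day 10. Of 22 granulosa and gonadal somatic markers in the table, 16 stayed under 1 TPM in all 4 libraries and 3 were listed at 0 in all 4. Their summed level was 24.3 and 23.0 TPM at day 15, against 20.5 and 20.1 TPM at day 10. Of this sum Gata4, which GV oocytes also held, made up 14.4 and 13.3 TPM at day 15, against 4.95 and 5.17 TPM at day 10. Amhr2, a receptor of the granulosa lineage, was at 0.08 and 0 TPM at day 15, against 0.08 and 0.16 TPM at day 10.

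At day 15 the genes called higher than at day 10 included oocyte growth factors such as Gdf9 and Bmp6, maternal genes such as Zar1 and Zbed3, and Esrrb and Tfap2e. Those called lower included the synaptonemal complex genes Sycp1 and Sycp3, the germ cell gene Dazl, and the keratins Krt8 and Krt18. Genes called higher at day 15 numbered 130 of 11603 tested (1.12%), and genes called lower numbered 292 (2.52%), 422 in all (3.64%). A call needed a Benjamini-Hochberg adjusted p under 0.05 in limma and a log2 change of 1 or more in size. Called changes ran from 2.22, for Rtn4r, to -3.37, for Cd63, and the median log2 change of all tested genes was -0.07. The 2 day 15 values lay above both day 10 values for all 130 genes called higher, and below both for 291 of the 292 called lower. That order alone was common, since 2923 tested genes had both day 15 values above both day 10 values and 4663 had them below. The exception among the calls was Hand1, described with the epithelial genes. Of the called genes 237 had a mean under 10 TPM at both days. After TPM was rescaled by the median of ratios the calls were 164 higher and 235 lower, so that the higher genes made up 41.1% of calls rather than 30.8%. Without replicate 1 of day 15 the counts were 81 higher and 178 lower.

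**Figure D1:**
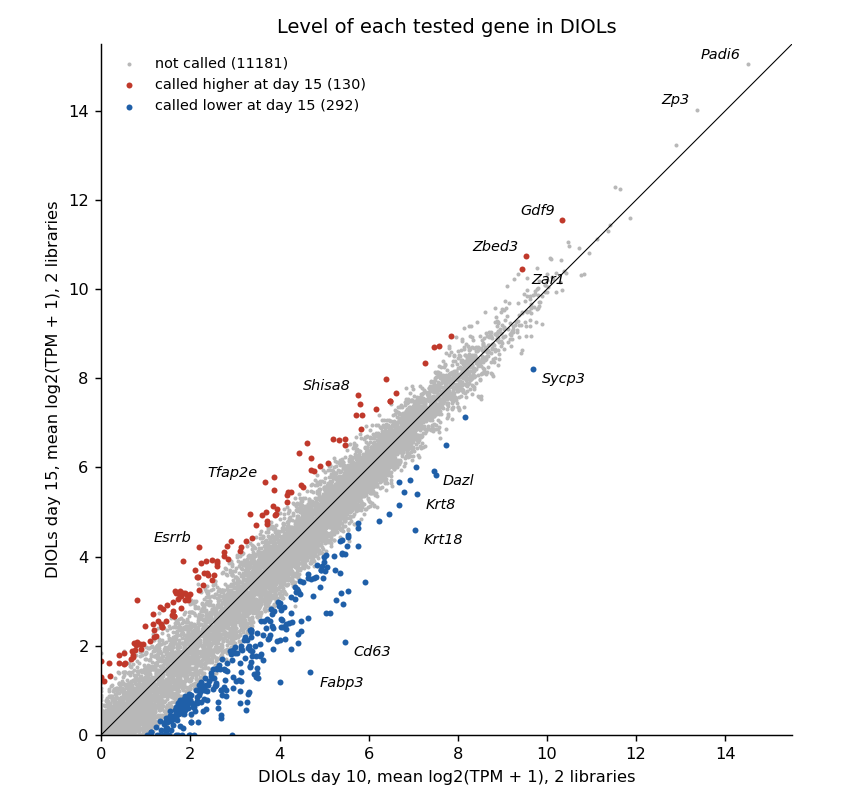
Mean log2(TPM + 1) of each tested gene over the 2 DIOLs libraries of day 15 (vertical axis) against the 2 of day 10 (horizontal axis), with the line of equal levels. Genes called higher at day 15 (130, red) lie above the line up to the level of Gdf9, and the more numerous genes called lower (292, blue) lie mostly at low levels, with Sycp3 the highest of them.

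The secreted growth factors Gdf9, Bmp6 and Fgf8 rose. Of 10 tested genes of the egg coat and of the oocyte's secreted factors 3 were called higher and 0 lower, against 1.12% and 2.52% of all tested genes. Their median log2 change was 0.92 (all genes -0.07). An adjusted p under 0.05 without the limit on fold was reached by 8 of the 10, all higher, where 7.45% of tested genes did so in that direction. Gdf9 encodes a growth factor of the TGF-beta family that the oocyte secretes to its granulosa cells, it lies at chr11:53431023-53437904 (plus strand, GENCODE M21 on GRCm38), and it had 3111 and 2881 TPM at day 15, against 1307 and 1283 TPM at day 10 (log2 change 1.21 ± 0.17, adjusted p = 7.0e-05). Both day 15 libraries stood above both day 10 libraries, in a gene that averaged 66.3 TPM at day 5 and 5760.2 TPM at day 25. Bmp6, another secreted factor of that family made by oocytes, had 100.4 and 96.5 TPM at day 15, against 37.4 and 34.0 TPM at day 10 (log2 change 1.44 ± 0.17, adjusted p = 1.5e-05). Fgf8, a fibroblast growth factor through which mouse oocytes act on glycolysis in cumulus cells, had 46.0 and 39.6 TPM at day 15, against 14.8 and 20.0 TPM at day 10 (log2 change 1.26 ± 0.29, adjusted p = 0.0051). The day 15 values of both genes lay above those of day 10 without overlap. The call of Fgf8 ended without replicate 1 of day 15 (log2 change 1.16, adjusted p = 0.061) and without replicate 1 of day 10 (1.06, adjusted p = 0.070).

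The zona genes Zp1 and Zp3 were already among the highest levels at day 10, and their changes lay under the fold limit. Zp3, at the levels given above, had a log2 change of 0.67 ± 0.12 (adjusted p = 5.7e-04). Zp1, which cross-links zona filaments, had 5122 and 4852 TPM at day 15, against 2905 and 2959 TPM at day 10 (log2 change 0.77 ± 0.12, adjusted p = 1.9e-04). Astl, which encodes ovastacin, the protease that cleaves ZP2 after fertilization, had 1355 and 1231 TPM at day 15, against 639.6 and 656 TPM at day 10 (log2 change 0.99 ± 0.12, adjusted p = 2.0e-05). In each of these 3 genes both day 15 libraries were above both day 10 libraries. Summed over the list, which also held Rbp7, a gene under 2 TPM in all 4 libraries, the level was 27577 and 26309 TPM at day 15, against 16079 and 16089 TPM at day 10.

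Of 23 tested transcripts typical of growing oocytes 3 were called higher and 0 lower, against 1.12% and 2.52% of all tested genes. Their median log2 change was 0.62. Without the limit on fold 18 reached an adjusted p under 0.05 upward, where 7.45% of tested genes did so. Oog4 and Oog2 belong to the oogenesin family, whose near-identical copies can share reads, so their levels are uncertain. Oog4 had 43.2 and 44.3 TPM at day 15, against 14.2 and 13.4 TPM at day 10 (log2 change 1.60 ± 0.18, adjusted p = 7.6e-06). Oog2 had 18.1 and 16.8 TPM at day 15, against 7.97 and 7.67 TPM at day 10 (log2 change 1.06 ± 0.20, adjusted p = 9.2e-04). Both genes rose, with replicates close together, and Oog4 was at a mean of 393 TPM by day 25. Zar1, which encodes a maternal RNA-binding protein needed for the first divisions of the embryo, had 1431 and 1359.8 TPM at day 15, against 675 and 708 TPM at day 10 (log2 change 1.01 ± 0.31, adjusted p = 0.028). Its libraries did not overlap, yet its change lay at the fold limit, and the call ended without any 1 of the 4 libraries (log2 change 0.97 to 1.05, adjusted p 0.10 to 0.14). Members under the limit included Npm2, a histone chaperone of the egg, at 2080.5 and 1934 TPM at day 15, against 1389.6 and 1483 TPM at day 10 (log2 change 0.48 ± 0.14, adjusted p = 0.022), and Gja4, the gap junction protein that joins oocyte and granulosa cells, at 465 and 446 TPM at day 15, against 271 and 270.2 TPM at day 10 (log2 change 0.75 ± 0.094, adjusted p = 2.7e-05).

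Of the subcortical maternal complex, a protein assembly below the egg's surface, 4 of 8 listed members were tested. Zbed3 was the member called higher, at 1784 and 1644 TPM at day 15, against 737 and 739 TPM at day 10 (log2 change 1.21 ± 0.14, adjusted p = 1.1e-05), and none was called lower. Padi6 (log2 change 0.54 ± 0.13, adjusted p = 0.0084) and Tle6, at 4931 and 4825 TPM at day 15, against 3043 and 3321 TPM at day 10 (log2 change 0.62 ± 0.100, adjusted p = 2.7e-04), had positive changes under the fold limit. The median log2 change of the 4 was 0.58. Of all tested genes 1.12% were called higher and 2.52% lower.

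**Figure D2:**
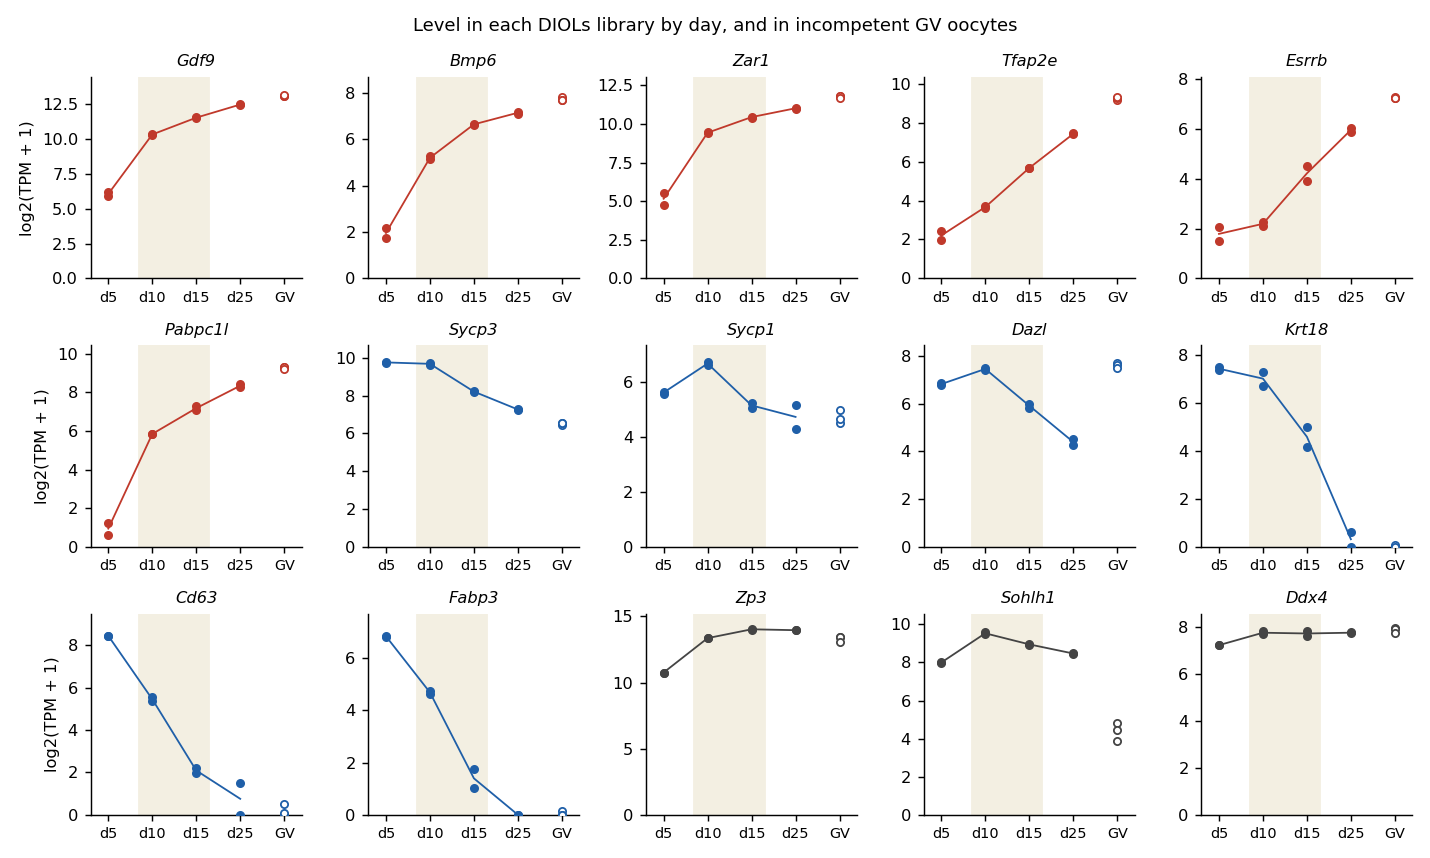
Level in log2(TPM + 1) of 15 genes in each DIOLs library at day 5, 10, 15 and 25 (2 libraries a day, filled points, line through the means) and in incompetent GV oocytes from mice (3 libraries, open points), with days 10 and 15 shaded. The column names of these oocytes carry the mark 2w, read here as mice 2 weeks old. Those of competent GV oocytes, which are not shown, carry 3w, read as 3 weeks. Red marks genes called higher at day 15 than at day 10, blue those called lower and grey those not called; Gdf9 averaged 66.3 TPM at day 5 and 5760.2 TPM at day 25, and Krt18 174 and 0.265 TPM at the same days.

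Promoters of genes that rose together are shown to set their letters beside the changes. The windows run from 250 bases before to 50 bases after the RefSeq start, 5′ to 3′ on the gene's strand, in build GRCm38.p6. Capitals mark 2 motifs searched on both strands: CANNTG, the E-box that basic helix-loop-helix factors such as FIGLA and SOHLH1 are known to bind, and TAATTG, a homeobox site of the kind that NOBOX is known to bind. The TATA box, TATAAA, was searched too. The first window is Zar1 at chr5:72581035-72581334 (minus strand), the second Oog4 at chr4:143450275-143450574 (minus strand) and the third Bmp6 at chr13:38345466-38345765 (plus strand).
Zar1: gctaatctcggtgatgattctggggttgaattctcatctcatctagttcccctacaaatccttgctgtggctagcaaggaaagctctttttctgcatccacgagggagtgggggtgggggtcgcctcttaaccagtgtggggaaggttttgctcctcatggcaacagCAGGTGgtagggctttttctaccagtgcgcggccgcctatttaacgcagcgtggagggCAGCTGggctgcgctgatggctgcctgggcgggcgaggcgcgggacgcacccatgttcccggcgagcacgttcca
Oog4: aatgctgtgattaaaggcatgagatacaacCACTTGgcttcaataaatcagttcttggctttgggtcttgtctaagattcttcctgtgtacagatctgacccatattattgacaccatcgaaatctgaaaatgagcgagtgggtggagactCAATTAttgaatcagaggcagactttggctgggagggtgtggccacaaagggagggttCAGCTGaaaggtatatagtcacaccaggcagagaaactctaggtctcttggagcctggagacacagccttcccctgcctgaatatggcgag
Bmp6: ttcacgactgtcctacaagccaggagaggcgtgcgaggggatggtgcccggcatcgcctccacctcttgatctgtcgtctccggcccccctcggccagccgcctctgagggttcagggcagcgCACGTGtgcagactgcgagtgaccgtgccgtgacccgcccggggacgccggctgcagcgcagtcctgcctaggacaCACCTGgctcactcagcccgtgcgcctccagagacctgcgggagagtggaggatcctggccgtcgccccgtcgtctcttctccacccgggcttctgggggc
Each of the 3 windows holds 2 CANNTG matches and no TATAAA, and Oog4 holds 1 TAATTG, read as CAATTA on the strand shown. A promoter was found in the RefSeq table for 84 of the 130 genes called higher, and 69.0% of these held CANNTG, 5.95% TAATTG and 8.33% TATAAA. Among the 8643 tested genes with a promoter the shares were 64.6%, 5.11% and 8.20% for the same motifs in that order. A match is a description of letters and no evidence of binding.

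Pabpc1l and Patl2 rose among the genes for storing and translating maternal messages. Of 14 tested members 2 were called higher and 0 lower, against 1.12% and 2.52% of all tested genes. Their median log2 change was 0.15. Pabpc1l, which encodes the poly(A)-binding protein of oocytes, had 155 and 134 TPM at day 15, against 57.3 and 55.7 TPM at day 10 (log2 change 1.34 ± 0.24, adjusted p = 7.8e-04). Patl2, which encodes an oocyte repressor of translation, had 123 and 108 TPM at day 15, against 58.1 and 53.4 TPM at day 10 (log2 change 1.03 ± 0.14, adjusted p = 4.5e-05). In both genes the 2 days were well apart relative to the replicates, and Pabpc1l had averaged 0.955 TPM at day 5. Eif4e1b, an oocyte form of the cap-binding protein, came close to the limit at 1252 and 1151 TPM at day 15, against 603 and 617 TPM at day 10 (log2 change 0.98 ± 0.18, adjusted p = 9.1e-04). Pan2, a subunit of a deadenylase, had the opposite sign at 52.8 and 53.8 TPM at day 15, against 71.8 and 77.9 TPM at day 10 (log2 change -0.48 ± 0.098, adjusted p = 0.0019), under the fold limit. Without replicate 1 of day 15 the log2 change of Patl2 was 0.94, and without replicate 2 of day 10 it was 0.97, both under the fold limit.

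Among 17 genes of meiotic arrest and resumption 0 were called higher and 1 lower, against 1.12% and 2.52% of all tested genes. Their median log2 change was -0.05, or 0.03 after rescaling. Mos, the kinase that holds mouse eggs at metaphase II, had 172 and 167 TPM at day 15, against 86.2 and 93.6 TPM at day 10 (log2 change 0.91 ± 0.14, adjusted p = 1.9e-04). Ccnb1, the cyclin of the maturation-promoting kinase, had 96.8 and 93.6 TPM at day 15, against 106 and 93.1 TPM at day 10 (log2 change -0.06 ± 0.12, adjusted p = 0.82). The member called lower was Npr2, in vivo the granulosa receptor for the peptide that maintains arrest, at 0.59 and 1.56 TPM at day 15, against 3.48 and 4.59 TPM at day 10 (log2 change -1.31 ± 0.38, adjusted p = 0.022), a low level in every library. That call ended without replicate 1 of day 15 (log2 change -0.97, adjusted p = 0.23), without replicate 1 of day 10 (-1.47, adjusted p = 0.060) and without replicate 2 of day 10 (-1.15, adjusted p = 0.15). Of 14 genes of the KIT, PI3K and FOXO pathway, which governs the exit from dormancy, 0 were called. Kit, the receptor for the stem cell factor in the medium, had 412 and 386 TPM at day 15, against 275 and 259 TPM at day 10 (log2 change 0.58 ± 0.11, adjusted p = 1.0e-03), and Foxo3, the factor that keeps primordial follicles dormant in mice, had 79.9 and 68.9 TPM at day 15, against 77.6 and 77.7 TPM at day 10 (log2 change -0.07 ± 0.17, adjusted p = 0.88).

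The strongest changes upward at levels of at least 10 TPM lay largely outside these lists. Esrrb, a nuclear receptor best known from naive stem cells, lies at chr12:86361117-86521628 (plus strand) and had 21.9 and 14.1 TPM at day 15, against 3.80 and 3.33 TPM at day 10 (log2 change 2.02 ± 0.22, adjusted p = 6.4e-06). Tfap2e, a transcription factor of the AP-2 family, had 50.6 and 49.4 TPM at day 15, against 12.3 and 11.1 TPM at day 10 (log2 change 2.01 ± 0.24, adjusted p = 2.0e-05). Both genes stood several times higher in each day 15 library than in either day 10 library, and they averaged 61.1 and 171 TPM at day 25 and 150.5 and 607 TPM in incompetent GV oocytes. Kif17, a kinesin motor, had 85.4 and 72.1 TPM at day 15, against 20.1 and 21.3 TPM at day 10 (log2 change 1.87 ± 0.22, adjusted p = 1.6e-05). Shisa8, of a family of auxiliary proteins of glutamate receptors, had 198 and 194 TPM at day 15, against 51.9 and 55.3 TPM at day 10 (log2 change 1.85 ± 0.32, adjusted p = 5.0e-04). Cd7, a surface protein best known from T cells, had 59.9 and 48.6 TPM at day 15, against 16.0 and 11.9 TPM at day 10 (log2 change 1.89 ± 0.30, adjusted p = 2.3e-04). These 3 genes had means of 0.72, 0.195 and 0.17 TPM at day 5. Their replicates lay close together at both days.

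Further genes of this group were enzymes, structural proteins and regulators. Rasa4, a GTPase-activating protein for Ras, had 146 and 142 TPM at day 15, against 49.3 and 53.6 TPM at day 10 (log2 change 1.47 ± 0.14, adjusted p = 3.1e-06). Fsd1, a microtubule-associated protein, had 32.6 and 27.9 TPM at day 15, against 9.25 and 9.07 TPM at day 10 (log2 change 1.62 ± 0.15, adjusted p = 2.3e-06). Ier5l, a relative of the immediate early gene Ier5, had 87.6 and 97.3 TPM at day 15, against 25.4 and 21.6 TPM at day 10 (log2 change 1.93 ± 0.23, adjusted p = 1.6e-05). All 3 were without overlap between the days and were higher still at day 25, at means of 289, 106 and 130.1 TPM. Krt79, a type II keratin, had 303 and 212 TPM at day 15, against 81.0 and 85.4 TPM at day 10 (log2 change 1.59 ± 0.18, adjusted p = 7.6e-06), with the 2 day 15 libraries further apart than those of day 10. Its mean was 371 TPM at day 25 and 20.1 TPM in incompetent GV oocytes. Stc2, a secreted glycoprotein, had 15.2 and 11.9 TPM at day 15, against 3.68 and 3.74 TPM at day 10 (log2 change 1.62 ± 0.33, adjusted p = 0.0021), and Pga5, a pepsinogen, had 13.4 and 10.6 TPM at day 15, against 3.10 and 3.55 TPM at day 10 (log2 change 1.58 ± 0.33, adjusted p = 0.0022), both below 16 TPM. The change of Pga5 was not called with a pseudocount of 0.1 (log2 change 1.81, adjusted p = 0.21).

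Hist3h2ba and Hist1h2bc were among the 15 strongest changes upward, and the histone family was counted after its values had been seen. Of 45 tested genes of the Hist clusters 6 were called higher and 0 lower, against 1.12% and 2.52% of all tested genes. Their median log2 change was 0.10. Hist1h2bc, an H2B gene, had 175 and 167 TPM at day 15, against 64.7 and 47.1 TPM at day 10 (log2 change 1.62 ± 0.22, adjusted p = 5.6e-05). Hist3h2ba, another, had 14.6 and 13.4 TPM at day 15, against 4.42 and 1.32 TPM at day 10 (log2 change 2.08 ± 0.40, adjusted p = 0.0012), and its 2 day 10 libraries differed by over a factor of 3. At day 5 Hist3h2ba averaged 11.8 TPM and Hist1h2bc 67.9 TPM, both above their day 10 libraries. The other 4 were Hist1h1a, Hist1h2bk, Hist1h4h and Hist1h4i, none above 13 TPM in any of the 4 libraries. Histone genes are near-identical copies and many of their transcripts lack a poly(A) tail, so their levels in polyA-selected RNA are uncertain.

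Among 12 tested genes of pluripotency 2 were called higher and 0 lower, against 1.12% and 2.52% of all tested genes. The median log2 change of the list was 0.03. The 2 called genes were Esrrb and Gbx2, a homeobox gene, which had 32.5 and 26.8 TPM at day 15, against 10.1 and 12.3 TPM at day 10 (log2 change 1.33 ± 0.27, adjusted p = 0.0021). Pou5f1, which encodes the stem cell and oocyte factor OCT4, had 509.8 and 516 TPM at day 15, against 409.6 and 386 TPM at day 10 (log2 change 0.37 ± 0.081, adjusted p = 0.0035), a change under the fold limit. Sox2, a stem cell factor, was under 1 TPM in all 4 libraries, at 0.8 and 0.14 TPM at day 15, against 0.19 and 0.43 TPM at day 10. Of 11 genes of DNA methylation Dnmt3l, the cofactor of the de novo methyltransferases in growing oocytes, was called higher at 8.45 and 7.36 TPM at day 15, against 2.47 and 2.23 TPM at day 10 (log2 change 1.41 ± 0.22, adjusted p = 2.2e-04). Its level was low in all 4 libraries beside a mean of 258 TPM in incompetent GV oocytes. Uhrf2, a relative of the maintenance factor UHRF1, had the opposite sign at 8.89 and 9.26 TPM at day 15, against 19.5 and 17.8 TPM at day 10 (log2 change -0.96 ± 0.17, adjusted p = 7.2e-04), just under the fold limit.

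Sycp1, Sycp3, Hfm1, Spata22 and Hormad1, all genes of meiotic prophase, fell. Of 23 tested members of the early meiosis list 0 were called higher and 5 lower, against 2.52% of all tested genes lower. The median log2 change was -0.55, and the summed level was 875 and 874 TPM at day 15, against 1598 and 1519 TPM at day 10. Sycp3, an axial component of the synaptonemal complex that lies at chr10:88459569-88473236 (plus strand), had 291 and 300.4 TPM at day 15, against 854 and 793 TPM at day 10 (log2 change -1.47 ± 0.097, adjusted p = 2.9e-08). Sycp1, its transverse filament, had 32.8 and 36.9 TPM at day 15, against 98.0 and 107 TPM at day 10 (log2 change -1.53 ± 0.21, adjusted p = 7.1e-05). In both genes each day 15 library lay at roughly the same distance below the day 10 libraries, and the levels at day 15 were still far above 0. Hfm1, a helicase of crossover formation, had 3.13 and 2.89 TPM at day 15, against 9.45 and 10.5 TPM at day 10 (log2 change -1.45 ± 0.20, adjusted p = 7.3e-05). Spata22, which acts with MEIOB in recombination, had 0.91 and 1.08 TPM at day 15, against 6.16 and 5.74 TPM at day 10 (log2 change -1.80 ± 0.35, adjusted p = 0.0012). Hormad1, an axis protein of unpaired chromosomes, had 5.32 and 6.56 TPM at day 15, against 13.3 and 17.6 TPM at day 10 (log2 change -1.24 ± 0.27, adjusted p = 0.0032). These 3 were under 18 TPM at both days and did not overlap between them.

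Members that were not called ran from a log2 change of -1.02 to one of 0.44. Dmc1, the recombinase of meiosis, had 4.38 and 4.20 TPM at day 15, against 9.19 and 8.38 TPM at day 10 (log2 change -0.89 ± 0.21, adjusted p = 0.0056). Rec8, the meiotic cohesin, had 0.08 and 0 TPM at day 15, against 1.30 and 0.59 TPM at day 10 (log2 change -0.88 ± 0.23, adjusted p = 0.011), having averaged 14.8 TPM at day 5. Prdm9 and Msh5, which place breaks and stabilise crossovers, had log2 changes of 0.21 and 0.44. Without replicate 2 of day 10 the call of Hormad1 ended (log2 change -1.05, adjusted p = 0.054). Sycp3 averaged 867 TPM at day 5 and 153 TPM at day 25. Sycp1 averaged 48.6 TPM at day 5 and 27.0 TPM at day 25.

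The promoters of both synaptonemal complex genes are shown beside those of the genes that rose, in the same window and with the same capitals. Sycp1 lies at chr3:102936051-102936350 (minus strand) and Sycp3 at chr10:88459337-88459636 (plus strand).
Sycp1: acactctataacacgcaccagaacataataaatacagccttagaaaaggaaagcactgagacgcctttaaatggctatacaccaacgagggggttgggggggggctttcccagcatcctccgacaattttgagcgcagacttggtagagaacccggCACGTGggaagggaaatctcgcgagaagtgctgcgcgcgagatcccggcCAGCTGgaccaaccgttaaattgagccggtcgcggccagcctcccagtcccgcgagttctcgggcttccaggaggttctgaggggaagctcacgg
Sycp3: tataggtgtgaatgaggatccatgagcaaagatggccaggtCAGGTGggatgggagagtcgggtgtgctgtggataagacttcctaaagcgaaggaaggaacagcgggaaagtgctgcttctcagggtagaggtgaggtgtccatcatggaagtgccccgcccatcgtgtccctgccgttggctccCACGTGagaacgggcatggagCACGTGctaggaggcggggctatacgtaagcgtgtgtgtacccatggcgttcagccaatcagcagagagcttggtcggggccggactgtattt
The Sycp1 window holds 2 and the Sycp3 window 3 CANNTG matches, and neither holds TAATTG or TATAAA. Of the 292 genes called lower 215 had a promoter in the table, and 68.4% of these held CANNTG, 2.33% TAATTG and 14.4% TATAAA, beside 64.6%, 5.11% and 8.20% of the tested genes with a promoter. Over all 27025 promoters in the table the shares were 72.1%, 8.15% and 14.2%.

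Dazl, Dnd1, Dppa4 and Tfap2c fell among the genes of germ cell identity. Of 12 tested members 4 were called lower and 0 higher, against 2.52% and 1.12% of all tested genes. Their median log2 change was -0.22. Dazl, an RNA-binding protein that licenses germ cells for meiosis, lies at chr17:50279395-50293636 (minus strand) and had 56.3 and 62.8 TPM at day 15, against 169 and 181 TPM at day 10 (log2 change -1.54 ± 0.14, adjusted p = 8.7e-07). Dnd1, a germ cell RNA-binding protein, had 2.47 and 3.17 TPM at day 15, against 16.7 and 10.7 TPM at day 10 (log2 change -1.92 ± 0.32, adjusted p = 3.6e-04). Dppa4, a chromatin protein of stem cells and early germ cells, had 13.2 and 17.2 TPM at day 15, against 29.9 and 44.6 TPM at day 10 (log2 change -1.22 ± 0.20, adjusted p = 2.5e-04), and Tfap2c, a factor of primordial germ cells, had 1.02 and 2.64 TPM at day 15, against 7.47 and 4.92 TPM at day 10 (log2 change -1.38 ± 0.25, adjusted p = 7.4e-04). In all 4 genes the days did not overlap, although the replicates of Dppa4 and Tfap2c were spread. Dazl averaged 20.1 TPM at day 25 and 195 TPM in incompetent GV oocytes. Tfap2c too was higher in those oocytes than in these DIOLs, at a mean of 20.4 TPM. Dnd1 and Dppa4 averaged 0.597 and 11.2 TPM there. Ddx4, the RNA helicase that marks germ cells throughout, had 232 and 195 TPM at day 15, against 229 and 207 TPM at day 10 (log2 change -0.03 ± 0.11, adjusted p = 0.92). The call of Tfap2c ended without replicate 1 of day 15 (log2 change -0.96, adjusted p = 0.030) and that of Dppa4 without replicate 2 of day 10 (-0.94, adjusted p = 0.011).

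Of 16 genes of the piRNA pathway, which silences transposons in germ cells, 0 were called, against 3.64% of all tested genes. Without the limit on fold 2 of the pathway reached an adjusted p under 0.05, both lower, where 11.2% of tested genes did so. Its most abundant members were Gtsf1, at 885 and 941 TPM at day 15, against 821 and 753 TPM at day 10 (log2 change 0.21 ± 0.25, adjusted p = 0.64), and Mael, at 338 and 336 TPM at day 15, against 335 and 302 TPM at day 10 (log2 change 0.08 ± 0.099, adjusted p = 0.64).

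Krt8, Krt18, Krt19 and Krt7, keratins of simple epithelia, and the junction gene Cldn6 fell. Over the whole keratin family, counted after its values had been seen, 4 of 27 tested genes were called lower and 2 higher (Krt79 and Krt73, the second not without replicate 1 of day 15), with a median log2 change of 0.01. Of 15 tested markers of epithelial, endodermal and trophoblast cells 6 were called lower and 0 higher, with a median log2 change of -0.41. Of all tested genes 2.52% were called lower and 1.12% higher. Over the 19 markers in the table the summed level was 248 and 285 TPM at day 15, against 660 and 506 TPM at day 10. Of these 19, 8 stayed under 1 TPM in all 4 libraries. Krt18 and Krt8 encode the paired keratins of simple epithelia. Krt18 had 17.1 and 31.4 TPM at day 15, against 159 and 106 TPM at day 10 (log2 change -2.43 ± 0.33, adjusted p = 6.1e-05). Krt8 had 37.3 and 45.6 TPM at day 15, against 139 and 128 TPM at day 10 (log2 change -1.67 ± 0.24, adjusted p = 7.9e-05). Both days were clearly apart, and Krt18 averaged 0.265 TPM at day 25 and 0.0167 TPM in incompetent GV oocytes. Krt19, another keratin of simple epithelia, had 4.08 and 10.7 TPM at day 15, against 63.0 and 27.5 TPM at day 10 (log2 change -2.47 ± 0.40, adjusted p = 2.6e-04), and Krt7 had 6.23 and 10.4 TPM at day 15, against 55.4 and 29.2 TPM at day 10 (log2 change -2.18 ± 0.38, adjusted p = 5.3e-04). At day 5 Krt19 and Krt7 averaged 13.2 and 9.5 TPM, below both of their day 10 libraries, whereas Krt18 averaged 174 TPM. Cldn6, a tight junction protein of early epithelia, had 5.14 and 3.09 TPM at day 15, against 22.1 and 20.6 TPM at day 10 (log2 change -2.16 ± 0.22, adjusted p = 3.7e-06).

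The libraries of a day differed among themselves in these genes. At day 10, replicate 1 had about 2 times the Krt19 and Krt7 of replicate 2. Hand1, a trophoblast and heart factor, had 1.48 and 5.90 TPM at day 15, against 23.5 and 4.66 TPM at day 10, so the higher day 15 library was above the lower day 10 library. Its log2 change of -1.51 (adjusted p = 0.022) was called, but it was -0.77 (adjusted p = 0.37) without replicate 1 of day 15 and -0.45 (adjusted p = 0.50) without replicate 1 of day 10. Epcam, an adhesion protein that germ cells share with epithelia, had 98.9 and 97.3 TPM at day 15, against 132 and 129 TPM at day 10 (log2 change -0.41 ± 0.11, adjusted p = 0.013). The part of other cells in the aggregates in these values was not tested.

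The Krt8 promoter is shown as an example with a TATA box. That box was held by 14.4% of the 215 genes called lower with a promoter. The share was 8.20% of tested genes with a promoter and 14.2% of all 27025 promoters. The Krt8 window lies at chr15:102004293-102004592 (minus strand), with TATAAA and CANNTG in capitals.
Krt8: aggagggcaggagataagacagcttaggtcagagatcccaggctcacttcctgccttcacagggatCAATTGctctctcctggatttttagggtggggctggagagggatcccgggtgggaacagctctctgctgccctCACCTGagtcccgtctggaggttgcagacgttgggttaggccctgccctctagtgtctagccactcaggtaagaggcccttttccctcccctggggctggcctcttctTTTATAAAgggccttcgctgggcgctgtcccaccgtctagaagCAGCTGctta
This window holds 3 CANNTG matches and 2 overlapping matches to TATAAA, 1 on each strand, which read together as TTTATAAA.

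Sparc and Myl9 fell among the stromal markers. Of 18 tested stromal, matrix and endothelial markers 2 were called lower and 1 higher, against 2.52% and 1.12% of all tested genes. Their median log2 change was -0.25. The summed level of the list was 24.1 and 36.8 TPM at day 15, against 82.9 and 62.2 TPM at day 10. Sparc, a secreted matrix protein, had 4.55 and 11.1 TPM at day 15, against 50.0 and 28.4 TPM at day 10 (log2 change -2.24 ± 0.58, adjusted p = 0.011), having averaged 593 TPM at day 5. Myl9, a myosin light chain of smooth muscle, had 0 and 0.32 TPM at day 15, against 2.61 and 2.25 TPM at day 10 (log2 change -1.58 ± 0.40, adjusted p = 0.0089). Sparc had the larger share of the list in replicate 1 of day 10, and Myl9 was at 0 in 1 day 15 library. Pecam1, which marks endothelium and also germ cells, was called higher at 5.09 and 5.69 TPM at day 15, against 1.88 and 2.29 TPM at day 10 (log2 change 1.05 ± 0.25, adjusted p = 0.0056). Col1a1, the main fibroblast collagen, was under 1 TPM in all 4 libraries. Each of these 3 calls ended without 1 library or another: Sparc was at -1.68 (adjusted p = 0.15) without replicate 1 of day 15 and -1.84 (adjusted p = 0.11) without replicate 1 of day 10, Myl9 at -1.38 (adjusted p = 0.097) and -1.50 (adjusted p = 0.064) without the same libraries, and Pecam1 at 0.98 (adjusted p = 0.052) without replicate 2 of day 15 and 0.96 (adjusted p = 0.056) without replicate 1 of day 10.

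Of 21 tested granulosa and gonadal somatic markers 1 was called, where 3.64% of all tested genes were called in either direction. This was Gata4, a factor of gonadal somatic cells that these data also show in mouse GV oocytes at a mean of 41.8 TPM. It had 14.4 and 13.3 TPM at day 15, against 4.95 and 5.17 TPM at day 10 (log2 change 1.29 ± 0.32, adjusted p = 0.0073), and without replicate 1 of day 15 its adjusted p was 0.064 (log2 change 1.23). Neural markers (7 tested, summed level 32.4 and 34.4 TPM at day 15, against 30.8 and 31.9 TPM at day 10) and blood and immune markers (11 tested, 59.4 and 59.0 TPM at day 15, against 74.6 and 71.8 TPM at day 10) held 0 calls. Most of the blood list's level came from C1qb, a complement subunit, at 45.3 and 43.3 TPM at day 15, against 53.5 and 56.1 TPM at day 10.

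The largest falls at levels of at least 10 TPM began with Cd63 and Fabp3. Cd63, a tetraspanin of late endosomes, lies at chr10:128900989-128912822 (plus strand) and had 2.99 and 3.56 TPM at day 15, against 40.0 and 46.1 TPM at day 10 (log2 change -3.37 ± 0.52, adjusted p = 1.8e-04). Fabp3, a fatty acid carrier, had 1.03 and 2.42 TPM at day 15, against 24.0 and 25.7 TPM at day 10 (log2 change -3.30 ± 0.30, adjusted p = 1.3e-06). Both were at under 4 TPM in each day 15 library, after means of 349 and 114 TPM at day 5. Ifi27, an interferon-induced gene, had 5.48 and 5.89 TPM at day 15, against 29.9 and 39.2 TPM at day 10 (log2 change -2.40 ± 0.33, adjusted p = 6.2e-05). Cyr61, a secreted target of YAP signalling, had 1.06 and 1.53 TPM at day 15, against 18.0 and 12.8 TPM at day 10 (log2 change -2.83 ± 0.58, adjusted p = 0.0021). Anxa1, a calcium-dependent membrane-binding protein, had 1.89 and 3.95 TPM at day 15, against 20.9 and 15.6 TPM at day 10 (log2 change -2.34 ± 0.39, adjusted p = 3.8e-04). Replicates of each were closer to each other than to the other day.

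Actin-binding and calcium-binding proteins were also in this group. Cnn2, a calponin, had 2.40 and 4.16 TPM at day 15, against 29.3 and 14.0 TPM at day 10 (log2 change -2.35 ± 0.37, adjusted p = 2.3e-04). Tagln2, a transgelin, had 5.24 and 13.1 TPM at day 15, against 62.6 and 33.1 TPM at day 10 (log2 change -2.31 ± 0.44, adjusted p = 0.0011). S100a10, the partner of annexin A2, had 4.31 and 7.43 TPM at day 15, against 26.6 and 38.2 TPM at day 10 (log2 change -2.30 ± 0.52, adjusted p = 0.0043), and Clic1, an intracellular chloride channel, had 0.57 and 2.83 TPM at day 15, against 11.4 and 9.08 TPM at day 10 (log2 change -2.19 ± 0.53, adjusted p = 0.0067). The days did not overlap in any of these 4, and replicate 1 was the lower of the 2 day 15 libraries in each. S100a10 was at -1.96 (adjusted p = 0.068) without replicate 1 of day 15 and -2.04 (adjusted p = 0.055) without replicate 2 of day 10, and Clic1 at -1.54 (adjusted p = 0.13) without replicate 1 of day 15 and -2.04 (adjusted p = 0.058) without replicate 1 of day 10. Snhg7, a host gene of small nucleolar RNAs, had 0.44 and 3.02 TPM at day 15, against 9.31 and 11.5 TPM at day 10 (log2 change -2.24 ± 0.46, adjusted p = 0.0021), and its call ended without replicate 1 of day 15 (-1.50, adjusted p = 0.073).

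Hspb1, Egr1, Ier5, Phlda3, Tnfrsf10b and Btg2 fell among genes of stress and growth arrest. Of 20 immediate early and heat shock genes 3 were called lower and 0 higher, against 2.52% and 1.12% of all tested genes. Their median log2 change was -0.43. Without the limit on fold 3 reached an adjusted p under 0.05 downward and 1 upward. Their summed level did not fall, at 2006 and 1921 TPM at day 15, against 1877 and 1774 TPM at day 10. Hspb1, a small heat shock protein, had 8.03 and 12.0 TPM at day 15, against 86.4 and 41.4 TPM at day 10 (log2 change -2.49 ± 0.27, adjusted p = 7.6e-06). Egr1, an early growth response factor, had 5.09 and 3.76 TPM at day 15, against 17.8 and 13.9 TPM at day 10 (log2 change -1.64 ± 0.42, adjusted p = 0.0095). Ier5, an immediate early gene, had 0.05 and 0.84 TPM at day 15, against 2.93 and 3.17 TPM at day 10 (log2 change -1.54 ± 0.27, adjusted p = 5.5e-04). The days did not overlap in these 3, although replicate 1 of day 10 had about 2 times the Hspb1 of replicate 2. Of 19 targets of p53 and p63 3 were called lower and 0 higher, against 2.52% and 1.12% of all tested genes. Their median log2 change was -0.34. Phlda3, an inhibitor of AKT, had 1.12 and 2.35 TPM at day 15, against 8.56 and 7.17 TPM at day 10 (log2 change -1.73 ± 0.35, adjusted p = 0.0019). Tnfrsf10b, a death receptor, had 3.42 and 4.07 TPM at day 15, against 11.2 and 11.5 TPM at day 10 (log2 change -1.39 ± 0.33, adjusted p = 0.0063), and Btg2, an antiproliferative gene, had 2.67 and 5.37 TPM at day 15, against 13.6 and 7.66 TPM at day 10 (log2 change -1.22 ± 0.31, adjusted p = 0.0086). Egr1 lost its call without replicate 2 of day 15 (log2 change -1.46, adjusted p = 0.086) and without replicate 1 of day 10 (-1.47, adjusted p = 0.082), Tnfrsf10b without replicate 1 of day 15 (-1.29, adjusted p = 0.065), and Btg2 without replicate 1 of day 15 (-0.82, adjusted p = 0.17) and without replicate 1 of day 10 (-0.84, adjusted p = 0.15).

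Calls in the metabolic lists are set against 3.64% of all tested genes called in either direction. Of 59 genes of the respiratory chain and ATP synthase 2 were called lower and 0 higher, and 14 reached an adjusted p under 0.05 downward without the limit on fold, where 11.2% of tested genes did so. Cox7b2 and Cox8c, cytochrome oxidase subunits known from testis, were the 2 called. Cox7b2 had 1.82 and 3.17 TPM at day 15, against 8.38 and 13.8 TPM at day 10 (log2 change -1.78 ± 0.29, adjusted p = 3.5e-04), and Cox8c had 15.6 and 15.2 TPM at day 15, against 31.6 and 32.4 TPM at day 10 (log2 change -1.01 ± 0.31, adjusted p = 0.026). The days were apart in both, but the change of Cox8c lay at the fold limit and its call ended without any 1 of the 4 libraries (log2 change -1.03 to -0.99, adjusted p 0.10 to 0.12) and after TPM was rescaled (-0.94, adjusted p = 0.061). Among 12 glycolytic genes Eno3, the muscle enolase, was called lower at 1.85 and 1.72 TPM at day 15, against 4.99 and 5.80 TPM at day 10 (log2 change -1.20 ± 0.21, adjusted p = 6.0e-04). Among 10 genes of the hypoxia response Ndrg1, a gene induced by low oxygen, was called lower at 4.96 and 4.53 TPM at day 15, against 18.7 and 18.3 TPM at day 10 (log2 change -1.77 ± 0.17, adjusted p = 2.6e-06). Of 18 genes of cholesterol synthesis, which growing mouse oocytes are known to leave largely to their cumulus cells, 0 were called, and Fdft1, squalene synthase, stood under the limit at 330.4 and 338 TPM at day 15, against 201 and 205 TPM at day 10 (log2 change 0.72 ± 0.13, adjusted p = 9.6e-04). The 21 genes of DNA replication and the cell cycle and the 18 of the stress response of translation and the endoplasmic reticulum held 0 calls each, with median log2 changes of 0.10 and -0.13. Hmgn2, a nucleosome-binding protein, had 208 and 223 TPM at day 15, against 303 and 313 TPM at day 10 (log2 change -0.52 ± 0.15, adjusted p = 0.024), under the fold limit, and it had averaged 734.7 TPM at day 5.

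The signalling lists held the calls below, where 3.64% of all tested genes were called in either direction. Of 17 genes of TGF-beta and BMP signalling Id2, a target of BMP, was called lower at 49.9 and 50.4 TPM at day 15, against 98.5 and 105 TPM at day 10 (log2 change -1.01 ± 0.18, adjusted p = 8.0e-04), and the median log2 change was -0.40. Of 16 genes of the Notch pathway Hes1 was called lower at 5.56 and 3.80 TPM at day 15, against 13.8 and 20.4 TPM at day 10 (log2 change -1.67 ± 0.38, adjusted p = 0.0043) and Hes5 higher at 1.42 and 2.84 TPM at day 15, against 0.12 and 0.12 TPM at day 10 (log2 change 1.44 ± 0.40, adjusted p = 0.017), both repressors that Notch is known to induce. The 2 days did not overlap in any of the 3, but each call ended under other settings. Id2 was at -0.93 (adjusted p = 0.0018) after TPM was rescaled. It fell just short of the fold limit without replicate 1 of day 15 (adjusted p = 0.012) and without replicate 2 of day 10 (log2 change -0.96). Hes1 was at -1.44 (adjusted p = 0.057) without replicate 2 of day 15 and -1.40 (adjusted p = 0.064) without replicate 2 of day 10. Hes5 was at 1.11 (adjusted p = 0.18) without replicate 2 of day 15, 1.44 (adjusted p = 0.081) without replicate 1 of day 10 and 1.44 (adjusted p = 0.085) without replicate 2 of day 10. Of 15 genes of LIF and JAK-STAT signalling 0 were called.

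None of the tested factors that the series knocked out singly in ovary-like cultures was called. They numbered 12, and their median log2 change was 0.03, where 3.64% of all tested genes were called in either direction. In published work on this system several of them are the introduced genes, and the values cannot separate introduced from own copies. Lhx8 had 332 and 311 TPM at day 15, against 309 and 274 TPM at day 10 (log2 change 0.14 ± 0.099, adjusted p = 0.36), Sub1 had 534 and 541 TPM at day 15, against 635 and 652 TPM at day 10 (log2 change -0.26 ± 0.11, adjusted p = 0.11), and Stat3 had 345 and 327 TPM at day 15, against 379 and 349 TPM at day 10 (log2 change -0.11 ± 0.12, adjusted p = 0.58). None of these 3 differences passed the threshold. Sohlh1 had 487 and 502 TPM at day 15, against 770.0 and 712 TPM at day 10 (log2 change -0.58 ± 0.27, adjusted p = 0.15), so both day 15 libraries were lower but the difference was not past the threshold. Tbpl2, the TATA-binding protein relative of oocytes, had 219 and 204 TPM at day 15, against 212 and 212 TPM at day 10 (adjusted p = 1.0), and Dynll1, a dynein light chain, had 511 and 527 TPM at day 15, against 484 and 462 TPM at day 10 (log2 change 0.13 ± 0.10, adjusted p = 0.43). Ccnk, a cyclin of transcription elongation, was the member with an adjusted p under 0.05, at 219 and 214 TPM at day 15, against 136 and 118 TPM at day 10 (log2 change 0.77 ± 0.090, adjusted p = 1.5e-05).

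**Figure D3:**
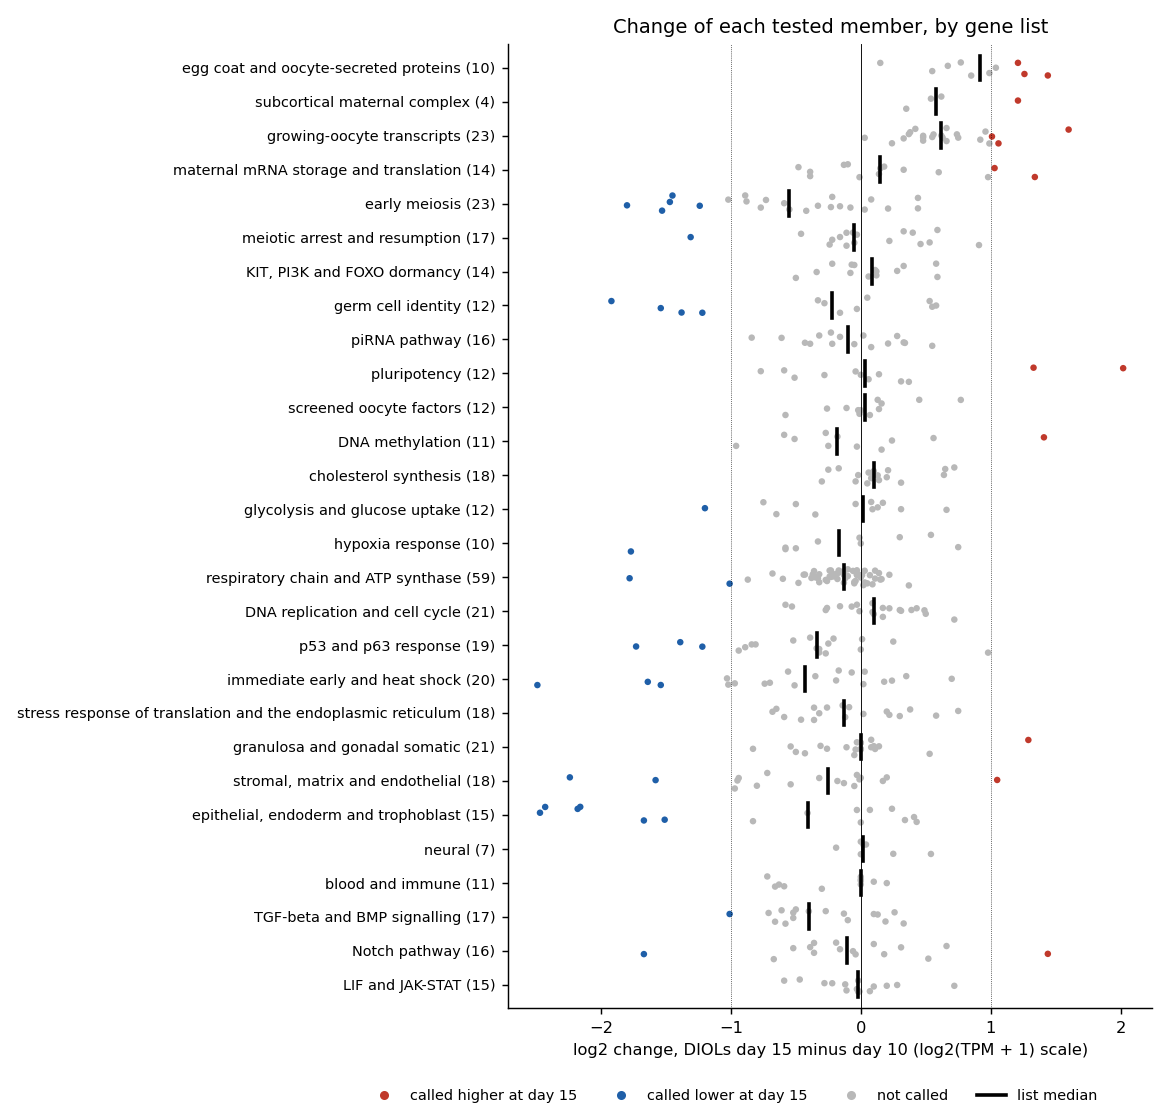
Log2 change from day 10 to day 15 of every tested member of the 28 gene lists, with the number tested in brackets, dotted lines at the fold limit and a bar at each list's median. Called genes sit to the right in the oocyte lists (3 of 10 egg coat and secreted, 3 of 23 growing-oocyte) and to the left in early meiosis (5 of 23), germ cell identity (4 of 12) and the epithelial list (6 of 15). Of all tested genes 1.12% were called higher and 2.52% lower.

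DIOLs.S, labelled with the same strain and genotype, offer libraries outside the comparison, here day 14 against day 7 with 2 libraries each. This interval is longer and starts earlier, so a difference in size is not matched in time. Of all tested genes 40.5% were called in DIOLs.S, in either direction. Of the 130 genes called higher in DIOLs at day 15, 96 (73.8%) were called higher in DIOLs.S at day 14 too, which are 10.6% of the 903 genes called higher there, and 7.78% of all tested genes were. Of the 292 called lower, 239 (81.8%) were called lower in DIOLs.S, which are 6.29% of 3802, and 32.8% of all tested genes were. After rescaling, which moved the median change of all genes in DIOLs.S to -0.17 from -0.51, 136 of 164 and 183 of 235 were called the same way in both. Of the 11557 genes tested after rescaling, 14.4% were called higher and 22.0% lower in DIOLs.S. Without replicate 1 of day 15, 63 genes were higher and 144 lower in both.

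The size of the change was compared by an interaction term. The difference was called for 64 of the 130 genes higher at day 15, with 53 less far up and 11 further up in DIOLs, and for 156 of the 292 lower genes, with 134 less far down and 22 further down. After rescaling it was called for 94 genes less far up and 7 further up of 164 higher genes, and for 80 less far down and 23 further down of 235 lower genes. As deposited, 28.8% of all tested genes had such a difference, 24.2% with the higher and 4.65% with the lower change in DIOLs. After rescaling, 1721 of 11557 tested genes had the higher and 1073 the lower change in DIOLs. Gdf9 changed by 1.21 in DIOLs and 3.30 in DIOLs.S on the log2 scale (difference -2.09 ± 0.24, adjusted p = 1.7e-06), and Zar1 by 1.01 in DIOLs and 5.02 in DIOLs.S (difference -4.01 ± 0.44, adjusted p = 1.2e-06). Pabpc1l changed by 1.34 in DIOLs and 5.73 in DIOLs.S (difference -4.39 ± 0.34, adjusted p = 3.7e-08). The starting levels were unlike. At day 7 in DIOLs.S Gdf9, Zar1 and Pabpc1l averaged 609, 136 and 5.435 TPM. At day 10 in DIOLs these genes averaged 1295, 692 and 56.5 TPM. For Sycp3 the changes were -1.47 in DIOLs and -1.61 in DIOLs.S (difference 0.14 ± 0.14, adjusted p = 0.43), and for Esrrb 2.02 in DIOLs and 2.48 in DIOLs.S (difference -0.45 ± 0.30, adjusted p = 0.23), neither past the threshold. Genes that went further in DIOLs were Hspb1, at -2.49 in DIOLs and -0.81 in DIOLs.S (difference -1.67 ± 0.38, adjusted p = 0.0014), Krt7, at -2.18 in DIOLs and -0.53 in DIOLs.S (difference -1.66 ± 0.53, adjusted p = 0.015), and Stc2, at 1.62 in DIOLs and -0.36 in DIOLs.S (difference 1.98 ± 0.47, adjusted p = 0.0018). In DIOLs.S Krt7 had only 0.22 and 1.99 TPM at day 7, so it could fall little there. Amhr2, at or below 0.16 TPM in the 4 DIOLs libraries, fell by 4.96 in DIOLs.S (difference 4.85 ± 0.61, adjusted p = 4.4e-06), where it averaged 2.71 TPM at day 14, against 123 TPM at day 7.

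**Figure D4:**
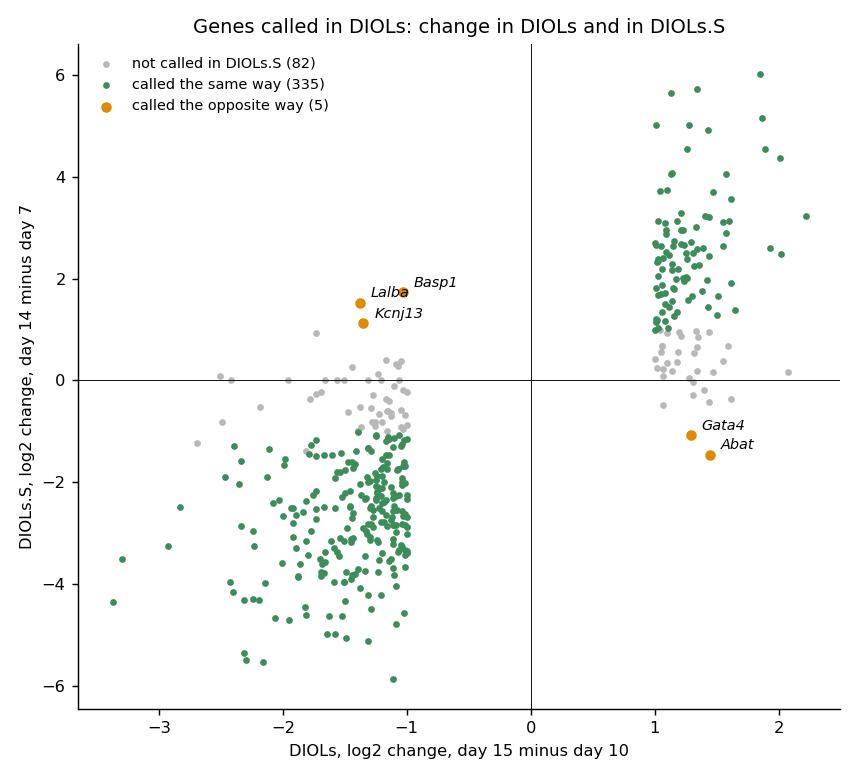
Log2 change of the 422 genes called between day 15 and day 10 in DIOLs (horizontal axis) against their change between day 14 and day 7 in DIOLs.S (vertical axis). Most were called the same way in DIOLs.S (green, 335), 82 were not called there (grey) and 5 were called the opposite way (orange).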

How the data were processed

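PolyA-selected RNA of 4 DIOLs libraries (day 15 and day 10, 2 each) was compared. Per the submitters' processing notes, STAR 2.6.0 and featureCounts 1.6.0 were used, with genome build mm10. The authors deposited TPM, a unit that corrects for gene length and sums to a fixed total; how reads that fit several gene copies were counted is not given in the sources used here. The table used here holds 15163 rows, of which an incomplete one and 22 with date-like names were dropped, leaving 15140 genes. Of its 148 columns 68 were mapped to samples, and 80 of no sample in the labels were not used. Columns of GV oocytes were assigned from the stage they name.

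Changes were computed with limma 3.58.1 in R 4.3.3 (trend and robust options) on log2(TPM + 1), with a pseudocount of 1. All 26 DIOLs, DIOLs.S, metaphase II DIOL and GV oocyte libraries (12 groups, 14 residual degrees of freedom) were fitted together, because 2 libraries a group give little information on the spread. Genes with at least 1 TPM in at least 2 libraries were tested, 11603 in all, and p-values were adjusted over all of them by the Benjamini-Hochberg method. Errors after ± are standard errors of the log2 change. The code was tested on simulated data. Alternatives were a pseudocount of 0.1, other filters, rescaled TPM, a replicate block, smaller fits and leaving out each library. The labels do not say whether same-numbered libraries belong together. Across genes, the difference of replicate 1 from replicate 2 at day 15 and that at day 10 correlated at -0.015. That value cannot exclude a shared culture or batch. TPM hold no depth, and counting error is therefore not given.

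Named genes were the 15 called genes with the largest change in each direction among those with a mean of at least 10 TPM in the higher group and no overlap, without predicted genes, up to 5 called members of each of 28 lists (for a list without calls, the 2 most abundant), and a set of oocyte, germ cell, stem cell, somatic and factor genes where measured. The members and lists were chosen with earlier results of these data known. Uncalled list members given beside them, and Hand1 and the histone family, were chosen after their values were seen. Gene positions are from GENCODE M21 and promoters from RefSeq (GRCm38.p6).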

Additional observations from a re-analysis of the deposited data

Results flagged for a closer look

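In 5 genes the change was called in opposite directions in DIOLs (day 15 against day 10) and in DIOLs.S (day 14 against day 7). The difference between the 2 changes passed the threshold in limma too. Opposite calls in the same fit make such a difference large by the choice of genes, so its passing is no separate support. The 2 intervals differ in length and in the day they start, so the comparison is not matched in time.

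Gata4 had 14.4 and 13.3 TPM at day 15, against 4.95 and 5.17 TPM at day 10 in DIOLs, and 28.4 and 21.3 TPM at day 14, against 87.7 and 32.3 TPM at day 7 in DIOLs.S (difference of log2 changes 2.38 ± 0.45, adjusted p = 2.5e-04). Abat, the enzyme that breaks down GABA, had 8.17 and 8.52 TPM at day 15, against 2.34 and 2.50 TPM at day 10 in DIOLs, and 3.17 and 5.41 TPM at day 14, against 28.1 and 5.99 TPM at day 7 in DIOLs.S (2.92 ± 0.56, adjusted p = 3.1e-04). In both genes the day 7 libraries of DIOLs.S lay far apart from each other.

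Basp1, a membrane protein of neurons, had 15.1 and 25.2 TPM at day 15, against 51.5 and 32.5 TPM at day 10 in DIOLs, and 34.4 and 49.5 TPM at day 14, against 16.7 and 8.05 TPM at day 7 in DIOLs.S (difference -2.77 ± 0.48, adjusted p = 1.2e-04). Kcnj13, a potassium channel, had 0.61 and 0.64 TPM at day 15, against 3.49 and 2.83 TPM at day 10 in DIOLs, and 3.56 and 7.16 TPM at day 14, against 0.76 and 3.39 TPM at day 7 in DIOLs.S (-2.49 ± 0.59, adjusted p = 0.0018). Lalba, known as a milk protein gene, had 0.90 and 0 TPM at day 15, against 3.85 and 1.66 TPM at day 10 in DIOLs, and 4.09 and 5.77 TPM at day 14, against 0.70 and 1.44 TPM at day 7 in DIOLs.S (-2.91 ± 0.65, adjusted p = 0.0011). The last 2 genes were under 8 TPM throughout.

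The difference stayed past the threshold for all 5 genes when any 1 of the 8 libraries was left out and after rescaling. This follows in part from choosing the genes by their opposite calls. The opposite calls themselves held after rescaling for 3 of the 5, Abat, Kcnj13 and Lalba. They ended for Gata4, whose log2 change in DIOLs.S was then -0.60 (adjusted p = 0.095), and for Basp1, whose change in DIOLs was then -0.96 (adjusted p = 0.055). The change within DIOLs was less secure. When 1 of the 4 DIOLs libraries was left out, the call of Kcnj13 (log2 change -1.47 to -1.24) and that of Abat (1.42 to 1.48) ended each time, that of Basp1 (-1.38 to -0.68) and that of Lalba (-1.84 to -0.92) in 2 of 4 cases, and that of Gata4 (1.23 to 1.35) in 1 of 4. Within DIOLs.S the call of Gata4 (-1.79 to -0.38) and that of Kcnj13 (0.47 to 1.79) held in 2 of 4 such cases, that of Abat (-2.49 to -0.44) and that of Lalba (1.27 to 1.79) in 3 of 4, and that of Basp1 (1.25 to 2.22) in all 4. Within DIOLs the call of Basp1 also ended with a pseudocount of 0.1, without the filter on low values, with a replicate block and in a fit of the 4 libraries alone. The DIOLs call of Kcnj13 ended with a pseudocount of 0.1, and that of Lalba with this pseudocount and without the filter.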

How the results depend on the processing

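Of 1105 values of named genes under another setting 1030 kept their direction and call, 61 kept the direction but not the call, and 14, in 8 genes that were not called, changed sign around 0. Rescaled TPM turned Ccnb1 (log2 change 0.01), Ddx4 (0.04), Foxo3 (0.01), Jak1 (0.06) and Sfr1 (0.05). Leaving out 1 library turned Ccnb1 (-0.15 to 0.03), Ddx4 (-0.16 to 0.09), Foxo3 (-0.17 to 0.04), Jak1 (-0.08 to 0.05), Map2 (-0.06 to 0.13), Nes (-0.07 to 0.12) and Sox2 (-0.19 to 0.46). The cause was not tested. Of the named called genes 39 of 66 (19 higher, 20 lower) were called under every setting. Leaving out 1 of the 4 libraries gave 81 to 118 genes called higher and 178 to 249 called lower, with 48 and 116 calls of the full fit kept in every case, fewest without replicate 1 of day 15. Other settings gave 127 to 164 higher and 235 to 340 lower. The labels do not say whether replicate numbers pair the libraries, and a replicate block gave 127 higher and 281 lower calls. Rescaled TPM gave 1721 genes with a higher and 1073 with a lower change than in DIOLs.S, beside 2805 and 539 as deposited, and it moved the median of that difference to 0.10 from 0.40. Leaving out 1 of the 8 libraries gave 2421 to 3281 and 490 to 641 such genes, and 63 to 98 called higher and 144 to 247 called lower in both DIOLs and DIOLs.S. With a pseudocount of 0.1 the calls of 14 named genes ended, Pabpc1l (log2 change 1.35, adjusted p = 0.060), Dnd1 (-2.21, adjusted p = 0.070) and Krt7 (-2.30, adjusted p = 0.067) among them, and in a fit of the 4 libraries alone those of Krt19 (adjusted p = 0.078), Tagln2 (0.070) and Sparc (0.059). Depth is unknown, and genes under a few TPM rest on few reads.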

Other observations

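Some gene families were counted after their members had been seen among the calls, so their counts are descriptions. Of all tested genes 2.52% were called lower and 1.12% higher. Of 13 tested host genes of small nucleolar RNAs (Snhg) 5 were called lower and 0 higher, with a median log2 change of -0.90. Snhg6 had 32.0 and 27.9 TPM at day 15, against 93.3 and 80.2 TPM at day 10 (log2 change -1.50 ± 0.21, adjusted p = 6.8e-05), after a mean of 374 TPM at day 5. Of 10 S100 calcium-binding proteins 5 were called lower and 0 higher (median -0.85). The calls of S100a1, S100a6, S100a10, S100a11 and S100a13 all ended without replicate 1 of day 15. Of 16 Serpinb protease inhibitors 6 were called lower and 0 higher (median -0.58), and of 23 H2 class I genes of the major histocompatibility complex 4 were called lower and 0 higher (median -0.11). Copies in the Serpinb and H2 families are alike, so their levels are uncertain. Of 8 annexins 2 were called lower and 0 higher (median -0.30).

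Bik and Bak1, members of the BCL2 family picked after their values were seen, had opposite signs. The family was not counted as a whole. Of its other members, Bok was called lower from a low level (log2 change -1.68, adjusted p = 0.0052), and Bcl2 was not called (-0.106, adjusted p = 0.83). Bik had 32.7 and 28.0 TPM at day 15, against 13.5 and 15.0 TPM at day 10 (log2 change 1.04 ± 0.23, adjusted p = 0.0043), whereas Bak1 had 1.40 and 2.32 TPM at day 15, against 9.95 and 10.7 TPM at day 10 (-2.01 ± 0.28, adjusted p = 7.0e-05). The call of Bik ended without replicate 1 of day 15 and without replicate 1 of day 10. Nppb, which encodes a natriuretic peptide, had 0.21 and 1.32 TPM at day 15, against 9.64 and 7.61 TPM at day 10 (-2.51 ± 0.34, adjusted p = 5.7e-05), while its log2 change in DIOLs.S was 0.09.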
